A study of Drosophila simulans with 4 samples.

Results

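The genes encoding attacins, diptericins and drosocin were examined in adult males of Drosophila simulans. They were chosen by FlyBase identifier: AttA (FBgn0012042), AttB (FBgn0041581), AttC (FBgn0041579), AttD (FBgn0038530), DptA (FBgn0004240), DptB (FBgn0034407) and Dro (FBgn0010388), which makes 7 of the 15358 genes listed. All 7 were present in the table of values.

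RNA of whole males was sequenced in 4 libraries, each from a pool of 100 males of different wild-caught mothers. The males came from Gotheron in the Rhône Valley or from Mayotte, and in each population 1 library came from flies on a natural medium and 1 from flies on cornmeal medium. The natural medium was apple for Gotheron (NG) and banana for Mayotte (NM), and the cornmeal libraries are CG and CM. The labels give 7 days of growth, whereas the methods give a shorter ageing time. All males were first-generation offspring of wild-caught females. The methods state that the natural medium in Mayotte was contaminated by bacteria, and that immunity genes were therefore left out of the study's own test. The fruit, the contamination and the single NM library cannot be told apart in this design.

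Attacins, diptericins and drosocin are small antibacterial peptides. In D. melanogaster, from which most of their biology is known, their genes are classical targets of the Imd pathway. Peptidoglycan of Gram-negative and some other bacteria is bound by the receptors PGRP-LC and PGRP-LE, and the signal ends in cleavage of the NF-κB factor Relish, which enters the nucleus and drives transcription. The fat body releases the peptides into the hemolymph after systemic infection, and the gut and other epithelia produce them locally. Attacins are glycine-rich proteins, diptericins hold a glycine-rich domain, and drosocin is a short proline-rich peptide.

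The values are normalised counts, that is, the reads of a gene scaled by a constant of its library that sets all library totals equal. The sequencing captured the 3′ end of each transcript, so a count does not grow with gene length and levels can be set side by side between genes, apart from differences in how well the reads of each gene map. The libraries held 9829895 to 10365609 reads on listed genes, with at least 1 read for 14257 to 14481 genes. Each library is 1 pool, so an error given for a single library is an exact Poisson or Clopper-Pearson 95% interval and covers counting error only. In whole-body RNA, a change in the number of expressing cells and a change in RNA per cell cannot be told apart. The identifiers were not paired with gene names in the sources used here, so marker genes of tissues and other genes of the Imd pathway were not analysed.

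The 7 genes were each highest in NM. Among the 12508 genes whose mean reached 5, 15.5% had their highest value in NM. In NM each of the 7 genes was at least 2-fold above the highest of the other 3 libraries, which held for 0.504% of those 12508 genes. The smallest such ratio was 2.11 for DptB and the largest 34.4 for AttC. Of the 7 genes, 6 passed the minimum mean of 5, and the same 6 passed it without NM. AttD, with a mean of 3.91, did not.

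**Figure D1:**
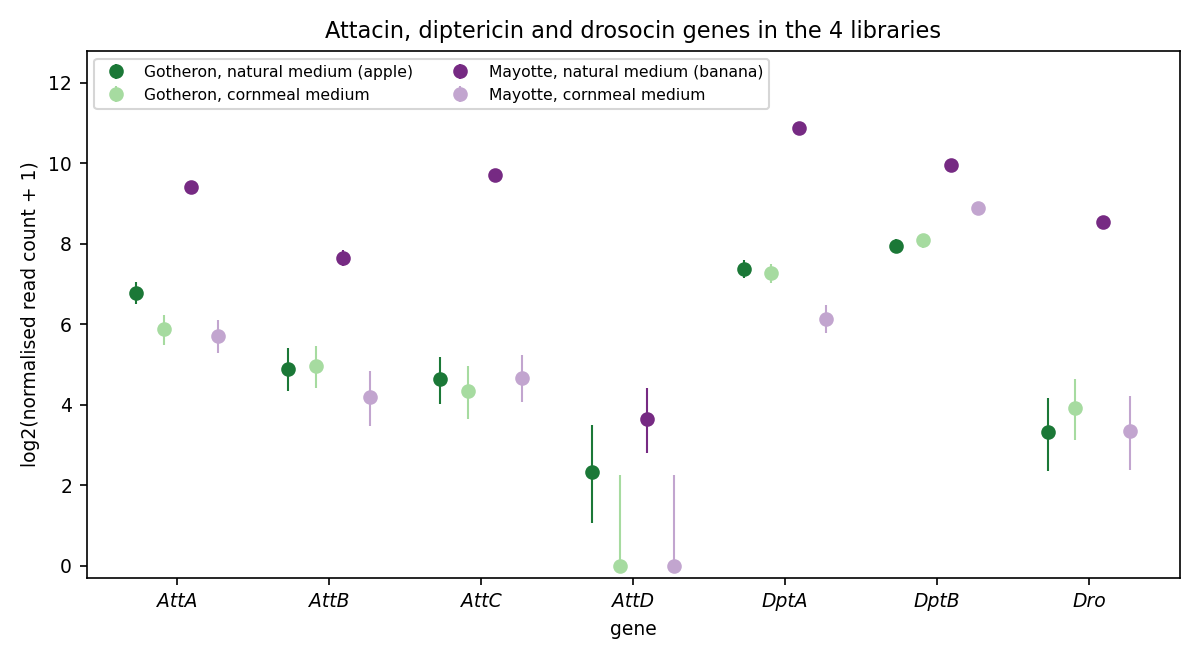
Normalised read count of each gene in each library, as log2(normalised count + 1), with exact 95% Poisson intervals of the counting error as bars. The NM point is the highest for each of the 7 genes, from 11.6 for AttD to 1893 for DptA on the count scale, and for AttD its interval overlaps that of NG.

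DptA encodes a diptericin that in D. melanogaster is needed against Providencia bacteria. Its normalised count was 165 in NG and 154 in CG, against 1893 in NM and 69.5 in CM. The NM value stood far above the rest, and CM was the lowest library, below both Gotheron libraries. DptB, the tandem neighbour of DptA in D. melanogaster, where it is needed against Acetobacter, had a different pattern. Its count was 246 in NG and 270 in CG, against 992 in NM and 470 in CM. Here both Mayotte libraries lay above both Gotheron libraries.

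AttA and AttB encode attacins that are nearly identical in D. melanogaster. Reads of 32 bases with up to 2 mismatches may be split between them, so their separate counts are uncertain. AttA had a count of 109 in NG and 57.7 in CG, against 681 in NM and 51.1 in CM. AttB had 28.9 in NG and 30.4 in CG, against 200 in NM and 17.4 in CM. When both genes were summed, the count was 138 in NG and 88.1 in CG, against 881 in NM and 68.5 in CM. The sum kept the order of the libraries seen for AttA.

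AttC encodes a further secreted attacin. Its count was 23.9 in NG and 19.2 in CG, against 844 in NM and 24.5 in CM, so 3 of the libraries were close to each other and NM stood apart. Dro, the gene of drosocin, had a like pattern, with 8.97 in NG and 14.2 in CG, against 371 in NM and 9.20 in CM. In NG and CM this rested on 9 reads each.

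AttD differs from the other attacins in that its D. melanogaster product lacks a signal peptide. It was the least abundant of the 7 genes in each library. It had 4 reads in NG and none in CG, against 12 reads in NM and none in CM. Taken as a floor of 3 reads, a count of 0 allows a normalised count of up to 3.04 in CG and up to 3.07 in CM, and the upper bounds of the exact Poisson intervals are 3.74 and 3.77. AttD reads were thus counted in both natural-medium libraries, and its level on cornmeal was below detection at this depth.

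Within Mayotte the natural-medium library exceeded the cornmeal library by at least 2-fold for all 6 genes that passed the minimum mean, compared with 2.63% of the 12508 genes. It did so by at least 4-fold for 5 of them, compared with 0.432%. The NM over CM ratio was 40.4 for Dro (interval 21.0 to 88.9), 34.4 for AttC (22.9 to 53.9) and 27.2 for DptA (21.4 to 35.2). Among the 12508 genes, ordered from the highest NM over CM ratio, these genes took places 2, 3 and 5. The ratio was 13.3 for AttA (9.99 to 18.1) and 11.5 for AttB (7.00 to 20.1), at places 7 and 10. For DptB it was 2.11 (1.89 to 2.36), at place 287. AttD was at least 3.79-fold higher in NM than in CM, taking 3 reads as the floor in CM, with a lower interval bound of 2.63. DptB was thus far below the other genes in this ratio, and its interval lay below the interval of each of them. The median log2 ratio of the 6 genes was 4.25, against -0.03 over all genes tested. With 1 library per medium in each population, these ratios have no replicate check and no test was made.

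Within Gotheron the same comparison gave no gene at least 2-fold higher or lower, where 3.4% of all genes were at least 2-fold higher and 3.14% at least 2-fold lower. The NG over CG ratio was 1.88 for AttA (1.35 to 2.64), the one gene of the 7 whose counting interval excluded 1 among those with reads in both libraries. It was 1.24 for AttC (0.653 to 2.40), 1.07 for DptA (0.857 to 1.35), 0.951 for AttB (0.551 to 1.64), 0.911 for DptB (0.763 to 1.09) and 0.633 for Dro (0.242 to 1.57). AttD had 4 reads in NG and none in CG, and the lower interval bound of its ratio, 0.650, is below 1, so a difference was not detectable at this depth (1.31 against the floor of 3 reads). The median log2 ratio of the 6 genes was 0.02, against -0.02 over all genes. The intervals for AttC and Dro are wide, and a difference within them was not detectable at this depth. Those of AttA and AttB take the reads of these genes as separate, which is uncertain. Their summed count was 138 in NG and 88.1 in CG.

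**Figure D2:**
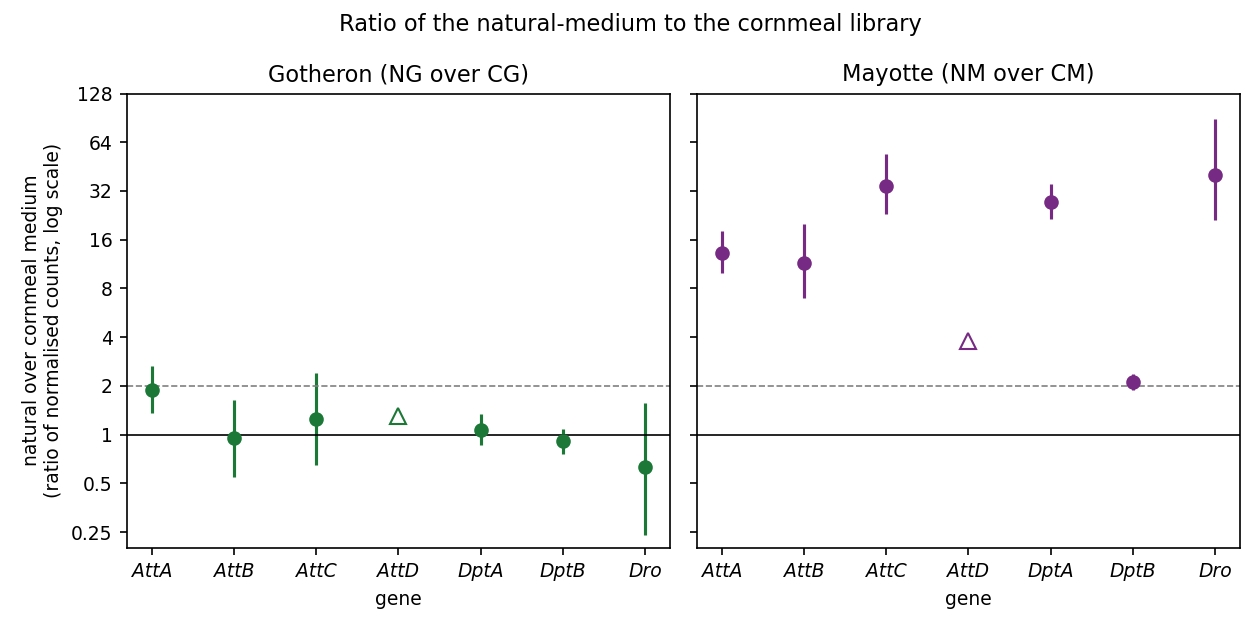
Ratio of the natural-medium to the cornmeal library for each gene in Gotheron (left) and Mayotte (right), on a log scale, with exact 95% intervals of the counting error. The solid line marks a ratio of 1, the dashed line a ratio of 2, and triangles are AttD against a floor of 3 reads on cornmeal. Ratios lie between 0.633 and 1.88 in Gotheron and between 2.11 and 40.4 in Mayotte for the genes other than AttD.

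The log2 ratio of natural over cornmeal medium was smaller in Gotheron than in Mayotte for each of the 6 genes. The difference of Gotheron minus Mayotte was -5.99 for Dro, -4.79 for AttC, -4.66 for DptA, -3.59 for AttB, -2.82 for AttA and -1.21 for DptB. It was smallest in size for DptB. This difference was not tested, since each population and medium has a single library.

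**Figure D3:**
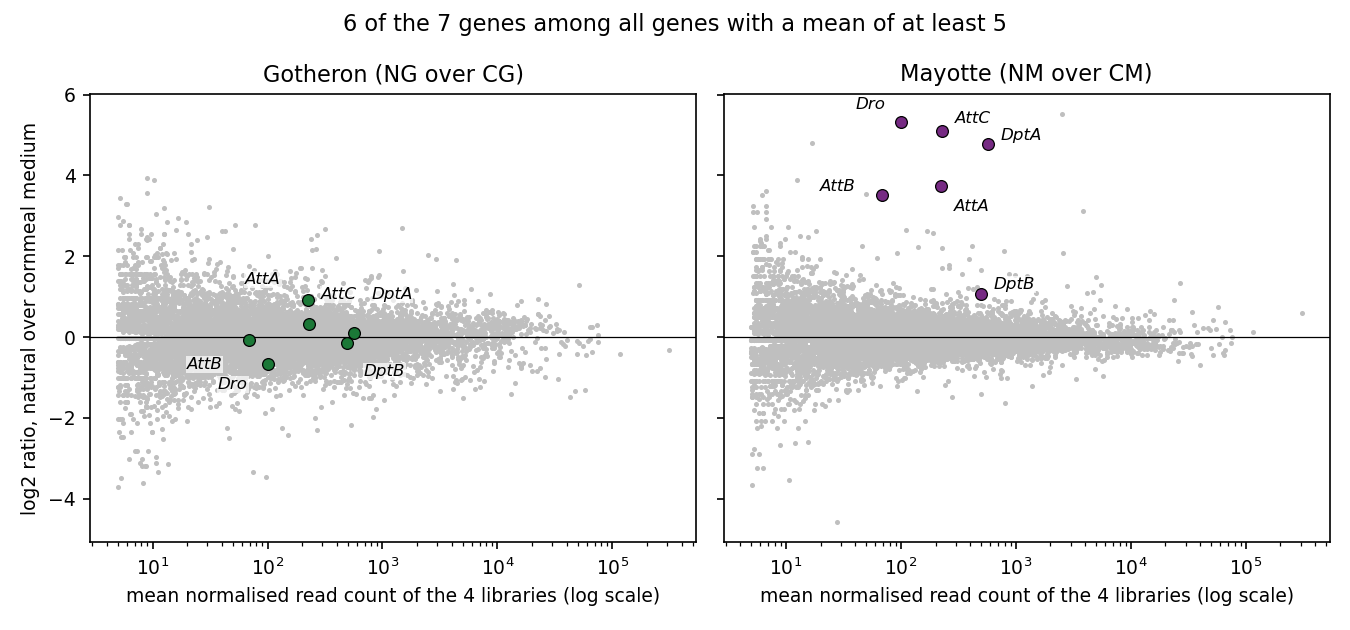
Log2 ratio of natural over cornmeal medium against the mean normalised count of the 4 libraries (log scale) for the 12508 genes whose mean reached 5 (grey), in Gotheron (left) and Mayotte (right), with 6 of the 7 genes in colour and AttD left out by its mean. In Mayotte 5 genes lie between 3.52 and 5.33 and DptB at 1.08, whereas in Gotheron the 6 genes lie between -0.66 and 0.91.

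Natural and cornmeal medium were also compared over both populations with limma, on log2(normalised count + 1) and with a term for the population. At a threshold of 0.05 on the Benjamini-Hochberg adjusted p, none of the 6 genes was called, and over all genes 0.016% passed as higher on natural medium and 0% as lower. The log2 fold change of natural over cornmeal medium was 2.30 for AttA (standard error 0.49, limma adjusted p = 0.29), 2.67 for AttC (0.80, adjusted p = 0.535) and 2.43 for DptA (0.76, adjusted p = 0.583). It was 2.29 for Dro (0.98, adjusted p = 0.716), 1.69 for AttB (0.63, adjusted p = 0.652) and 0.47 for DptB (0.25, adjusted p = 0.795). At an unadjusted p under 0.05, 5 of the 6 genes passed, all but DptB, compared with 6.89% of all genes. The fit averages the populations, whose log2 ratios for the 6 genes were -0.66 to 0.91 in Gotheron and 1.08 to 5.33 in Mayotte. It therefore does not show a medium difference shared by both populations. In this fit the standard error includes the difference between the populations in the size of the medium difference.

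Gotheron was compared with Mayotte by a rewritten form of the procedure of the methods, an overdispersed Poisson model in 2 steps. The model takes the dispersion of a gene from all genes of like mean. It was run on all listed genes, immunity genes included, and its calls and counts are not those of the study. Before the consistency filter, 6 of the 7 genes were lower in Gotheron at an adjusted threshold of 0.05, compared with 2.78% of all genes. The filter keeps a gene when both libraries of one population lie above both of the other, which held in this direction for 13.4% of all genes. It kept AttC and DptB, compared with 2.52% of all genes called lower in Gotheron. Genes called higher in Gotheron made up 3.7% and included none of the 7. Over all genes 569 were called higher and 387 lower in Gotheron, and after TMM scaling 406 were higher and 627 lower.

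DptB averaged 258 ± 17.1 in Gotheron and 731 ± 369 in Mayotte (SD, n = 2 each). The log2 fold change, Gotheron over Mayotte, was -1.50 (2-step adjusted p = 2.06e-12 from a model fitted across all genes, as an exact permutation test of 2 against 2 libraries cannot go below 0.333). Without NM it was -0.87, with CM as the only Mayotte library and so no replicate check there. AttC averaged 21.6 ± 3.31 in Gotheron and 434 ± 579 in Mayotte (SD, n = 2 each). Its log2 fold change was -4.33, and without NM it was -0.19 and the call was lost. AttC passed the filter because CM lay just above NG. Both libraries had 24 reads of AttC, so the order came from the scaling factors alone. With edgeR on the reads of 3 libraries (without NG) DptB was called and AttC was not, and with DESeq2 on the same reads neither was.

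AttA, AttB, DptA and Dro failed the filter because CM was below at least 1 Gotheron library. With NM included their log2 fold changes (Gotheron over Mayotte) were -2.14, -1.87, -2.62 and -4.04. Without NM they were 0.70, 0.77, 1.20 and 0.33, that is, of the opposite sign. Without NM, CM is the only Mayotte library, so these values have no replicate check in Mayotte. The largest was that of DptA. Both Gotheron libraries were above CM for AttA, AttB and DptA. Of AttA, AttB, DptA and Dro, the counting interval of the CG over CM ratio excluded 1 for DptA alone. AttD had a log2 fold change of -1.55 (2-step adjusted p = 0.27). The direction of the population difference thus rested on the NM library for these 4 genes and not for DptB.

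Limma, which uses the spread between the libraries of a population, called none of the 6 genes in the population comparison, where 0.368% of all genes passed as lower and 0.72% as higher in Gotheron. The unadjusted p was under 0.05 for DptB alone, compared with 14% of all genes. DptB had a log2 fold change (Gotheron over Mayotte) of -1.40 (standard error 0.31, limma adjusted p = 0.0981), and the other 5 genes had standard errors from 0.91 to 1.36. With the medium as a block, DptB passed at an adjusted p of 0.0181 in limma, with the same log2 fold change of -1.40. In that fit 133 of the 12508 genes were called lower and 181 higher in Gotheron.

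The populations were then set side by side within each medium. On cornmeal DptA was higher in Gotheron, with a CG over CM ratio of 2.21 (interval 1.65 to 2.99), and 4.71% of all genes were at least 2-fold higher in CG, against 3.69% at least 2-fold lower. DptB was lower, with a CG over CM ratio of 0.575 (0.492 to 0.670). Both diptericin genes thus differed beyond counting error, in opposite directions. The interval included 1 for AttA (1.13, 0.758 to 1.68), AttB (1.75, 0.933 to 3.38), AttC (0.784, 0.406 to 1.49) and Dro (1.54, 0.621 to 4.03). On natural medium all 6 genes that passed the minimum mean were at least 4-fold lower in NG than in NM, compared with 0.847% of all genes. The NG over NM ratio ranged from 0.0242 for Dro to 0.248 for DptB, and was 0.0874 for DptA. For AttD, outside the 6, it was 0.343, from 4 and 12 reads, with an interval of 0.0805 to 1.13 that includes 1.

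The sum of the 7 genes was 586 in NG and 546 in CG, against 4992 in NM and 642 in CM. It was 7.77 times as high in NM as in CM, and 1.07 times as high in NG as in CG. The genes did not contribute evenly. DptB made up 42.0% of the sum in NG (38.0 to 46.1) and 49.5% in CG (45.2 to 53.8), against 19.9% in NM (18.8 to 21.0) and 73.2% in CM (69.6 to 76.7). DptA made up 28.2% in NG and 28.2% in CG, against 37.9% in NM and 10.8% in CM. AttC made up 4.08% in NG and 3.53% in CG, against 16.9% in NM and 3.82% in CM. In CM most of the summed count thus came from DptB, whereas in NM it was spread over DptA, DptB, AttC and AttA.

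**Figure D4:**
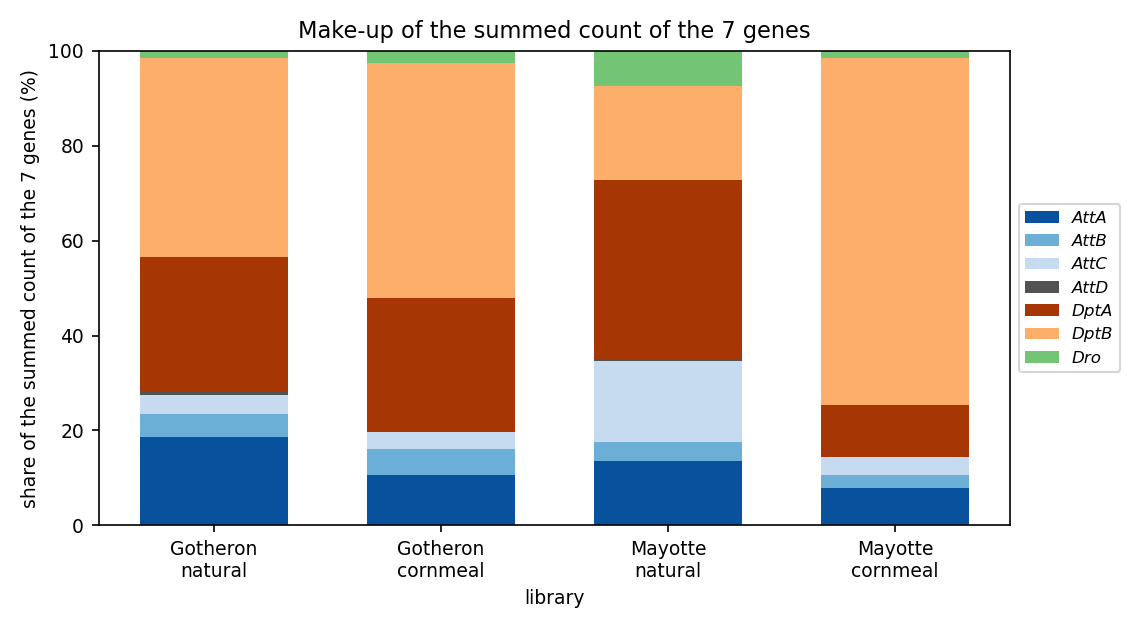
Share of each gene in the summed normalised count of the 7 genes, in percent, for each library. DptB (light orange) takes 42.0% and 49.5% in the Gotheron libraries NG and CG, 19.9% in NM and 73.2% in CM.

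The ratio of DptA to DptB differed between the libraries beyond counting error, apart from the pair NG and CG. It was 0.672 in NG (0.549 to 0.821) and 0.569 in CG (0.463 to 0.697), against 1.91 in NM (1.77 to 2.06) and 0.148 in CM (0.113 to 0.191). DptA was the more abundant of the 2 genes in NM alone. The ratio of AttA to AttB was 3.76 in NG (2.48 to 5.87) and 1.90 in CG (1.20 to 3.06), against 3.41 in NM (2.91 to 4.00) and 2.94 in CM (1.67 to 5.44). AttA was the higher of the pair in each library, with intervals that overlapped between NM and CM. These ratios take the reads of AttA and AttB as separate, which is uncertain. The ratio of AttC to AttA was 0.220 in NG (0.135 to 0.345) and 0.333 in CG (0.187 to 0.569), against 1.24 in NM (1.12 to 1.37) and 0.480 in CM (0.282 to 0.796).

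The order of levels was therefore not the same in all libraries. In NG and CG it ran DptB, DptA, AttA, AttB, AttC, Dro and AttD. In CM it began with DptB, DptA and AttA as well, and in NM with DptA, DptB, AttC and AttA. In NM each gene differed from the next in order beyond counting error. Neighbours that did not were AttB and AttC in NG, CG and CM, Dro and AttD in NG, AttC and Dro in CG, DptA and AttA in CM, and AttB and Dro in CM. Among all listed genes DptA held place 800 in NM and place 8329 in CM, and DptB held places 1484 and 2959.

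Genes with the most similar profile were sought among 12502 others, by the root mean square difference over the 4 libraries between their log2(normalised count + 1), centred on its own mean, and the mean of the centred profiles of the 7 genes. Within a difference of 0.5 there were 5 genes. The closest was FBgn0000278, at 0.21, with a count of 3.99 in NG and 4.05 in CG, against 57.2 in NM and 2.05 in CM. Its counts outside NM are all below 5, so it reached the minimum mean of 5 only through NM. FBgn0038532 followed at 0.26, with 1526 in NG and 1070 in CG, against 11341 in NM and 1308 in CM. The second was thus far more abundant than any of the 7 genes. Of the 7 genes themselves, AttA was the nearest to their mean profile, at 0.23, and DptB the farthest, at 0.997. AttC (0.740), AttD (0.797) and Dro (0.724) also lay beyond 0.5, so the mean profile does not stand for each of the 7.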

How the data were processed

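Reads were cleaned by the authors with seqclean. ELAND placed 32-mers, with at most 2 mismatches, on the D. melanogaster genome first and the leftover reads on that of D. simulans, whose genes were then given their D. melanogaster ortholog. CASAVA is named in the submitters' processing notes. No source used here gives builds or versions. The deposited values are a signal on a linear scale, read counts per gene times 1 factor per library. In the deposited values 100% of the entries were whole reads, within 0.01, when divided by the smallest value of their library. A check of the values accepted this for all libraries but NG, whose factor is close to 1. Its reads are used in counting intervals and not in edgeR or DESeq2.

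The 2-step procedure was written in R 4.3.3. For each gene, a Pearson dispersion around 1 mean was smoothed by loess (span 0.75, degree 2) on the log scale and set to at least 1, and the population means were compared with a likelihood ratio test, adjusted by Benjamini-Hochberg over all 15358 genes at 0.05. For genes whose mean reached 5, log2(normalised count + 1), which understates changes of low values, was fitted with limma 3.58.1 and a trended prior. Population was the term in one fit, and population and medium in the other. Intervals were computed with scipy 1.17.1. The 2-step procedure (likelihood ratio and Wald), both limma fits, edgeR and DESeq2 were run on simulated data. Their spread followed a dispersion curve fitted over all genes. The intervals, the profile ranking and the other alternatives were not run on simulated data. Alternatives were a Wald test, other dispersions, TMM scaling, other filters and pseudocounts, a block for the medium, edgeR 4.0.16 and DESeq2 1.42.0 on recovered reads of 3 libraries, and each library left out in turn. The genes of interest and the tests were chosen with earlier results of these data known. The nearest genes by profile are the first 2 of a ranking by a rule set with the tests. The RefSeq gene table of Prin_Dsim_3.1 holds 0 of the identifiers, so a list of Imd pathway genes set by symbol was not run. Replicate 1 is cornmeal and replicate 2 natural medium in each population. By the methods each wild-caught female was placed on 1 of the 2 media, so the pools of a population hold offspring of different females. Limma p-values measure the spread between these libraries, with a prior from all genes. The 2-step p-values do not, as they take the dispersion from genes of like mean. For AttC that dispersion was 4.16, against an SD of 579 around a mean of 434 in Mayotte.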

Additional observations from a re-analysis of the deposited data

Results flagged for a closer look

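For AttB, DptB and Dro the difference between natural and cornmeal medium had opposite signs in the 2 populations. This difference between populations was not tested, since each population and medium has 1 library. The log2 ratio of natural over cornmeal medium was -0.072 in Gotheron and 3.52 in Mayotte for AttB, -0.14 in Gotheron and 1.08 in Mayotte for DptB, and -0.66 in Gotheron and 5.33 in Mayotte for Dro. For all 3 genes the counting interval of the Gotheron ratio included 1, so their sign in Gotheron is within counting error.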

How the results depend on the processing

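In the 2-step procedure AttC and DptB were the genes called under the Wald test, the dispersion taken within populations, the quadratic curve, TMM scaling and the minimum mean of 5. Without the consistency filter 6 genes were called, with edgeR 1 (DptB) and with DESeq2 0, where 690 of all genes had an unadjusted p under 0.05. Gotheron has 1 library in edgeR and DESeq2. Leaving out 1 library gave 2 to 7 called genes of the 7 and 747 to 1471 genes in all, against 956. Each of these fits leaves 1 population with a single library, so its calls have no replicate check there. Over all genes 2039 were called with the dispersion within populations, 516 with edgeR and 226 with DESeq2. Without Mayotte replicate 2 (NM) the log2 fold change of Gotheron over Mayotte turned positive for AttA, AttB, DptA and Dro. The values were 0.70, 0.77, 1.20 and 0.33, and 0.62, 0.74, 1.19 and 0.27 in limma. Without Mayotte replicate 1 (CM) they were -3.03 for AttA, -2.75 for AttB, -3.57 for DptA and -5.00 for Dro. In limma these were -3.09, -2.71, -3.56 and -4.92. Limma called 0 of the genes in the population comparison under other pseudocounts, without the filter, under TMM scaling and with 1 prior variance, and 0 to 6 with 1 library left out. Without Gotheron replicate 1 these were AttC, DptB and Dro, without Gotheron replicate 2 AttA, AttC and DptB, and without Mayotte replicate 1 all 6. The lone library is then assumed to vary like the other population. Over all genes limma called 136, and 34 without the filter, 13 with 1 prior variance and 61 to 1086 with 1 library left out. With the medium as a replicate block it called 314 genes and 1 of the 7, DptB, at an adjusted p of 0.0181. Over 12508 genes the difference between media in Gotheron and in Mayotte correlated at 0.0885, and genes are not independent replicates. For the medium, limma called 2 genes in all, and 8 under TMM scaling, 0 without the filter, 0 with 1 prior variance and 0 without the population term, with none of the 7 genes in any. It called the same number, 2, when the 10 genes of highest mean were left out of the library totals. That setting and the ratios of the populations within a medium were chosen after seeing the data. Leaving out a library leaves no residual degrees of freedom there, so this was not run, and the ratios within each population stand in its place. The cause of these changes was not tested. Removal of the NM library turned the signs above, which follows from the values of the remaining libraries. All 7 genes in Mayotte, AttD by its bound, and 0 in Gotheron were at least 2-fold higher on natural medium as deposited, under TMM scaling and on unscaled reads. With AttA and AttB, and DptA and DptB, summed, it was 5 of 5 in Mayotte and 0 in Gotheron. The median over all genes of Gotheron minus Mayotte (log2) was 0.12 as deposited and -0.004 under TMM. For Dro, AttC and AttB, with 9 to 30 reads outside NM, the counting interval of each ratio between the Gotheron libraries spans more than 2-fold.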
